A study of Mus musculus with 6 samples.

Results

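Hox genes encode homeodomain transcription factors that specify position along the head-to-tail axis, and mouse carries them in 4 clusters, Hoxa, Hoxb, Hoxc and Hoxd. Within a cluster the genes lie in the order of their paralogue numbers, and low numbers are used towards the head and high numbers towards the tail, a relation known as collinearity. The clusters are textbook targets of Polycomb repression, and skin cells keep a Hox pattern that reflects where on the body they lie. The rows of 38 Hox genes were taken by gene symbol from the 24453 symbols of each count file, 10 genes each of Hoxa and Hoxb and 9 each of Hoxc and Hoxd. They are described as anterior (paralogues 1 to 3, 7 genes), central (4 to 8, 15 genes) and posterior (9 to 13, 16 genes).

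The RNA came from cells sorted as hair follicle from the back skin of mice at postnatal day 0, 3 control libraries and 3 of the genotype Ring1a-/- Ring1b-/I53A. Ring1a (gene Ring1) and Ring1b (gene Rnf2) are the ubiquitin ligases of Polycomb repressive complex 1, and the I53A substitution is used because it weakens ubiquitin transfer by Ring1b without removing the protein. The mutants carry no Ring1a, a null allele of Ring1b and the I53A allele together, and the labels call the other genotype only control. They give neither the alleles of the controls, nor what deletes Ring1a and Ring1b or in which cells, nor the axial level of the back skin, nor whether the 3 samples of a group were separate animals, so p-values here measure a spread between samples that could be technical. The protocol text describes a gate for interfollicular epidermis, while every sample is labelled hair follicle.

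Library totals ran from 14335156 to 18811587 counts, of which 5437 to 8830 fell on the 38 Hox genes. Levels are given in CPM, reads scaled to the effective library size, where 1 CPM stood for 14.7 to 18.2 reads. A gene without a read could still have been present at 3 counts, which is 0.164 to 0.204 CPM, a limit that covers counting error only. The targeted Ring1 had 247, 352 and 372 reads in controls and 59, 119 and 73 in mutants, and it fell (log2 fold change -1.98, SE 0.33, edgeR adjusted p = 0.0113). Rnf2, whose counts cannot show a substituted codon, was at 59.8 ± 6.93 and 67.1 ± 3.68 CPM (SD, n = 3 each). Follicle genes were present in all 6 libraries, Lhx2 at 224 to 393 CPM, Shh at 27.7 to 151 CPM and Lef1 at 277 to 441 CPM. The 13 follicle and basal keratinocyte markers summed to 14150 to 16830 CPM in controls and 15132 to 20014 CPM in mutants. Krt5, a basal keratinocyte gene, held 7437 to 11753 CPM of these sums, which therefore do not measure follicle content alone. The 6 suprabasal markers of interfollicular epidermis that the files hold (7 listed) were also read, at 4015 to 5500 and 2578 to 4232 CPM. No marker of either list was called, but with the labels' replicate number as a block the follicle list had 2 higher (Krt5, Krt17) and 2 lower (Shh, Edar) and the suprabasal list 1 higher (Krtdap) and 1 lower (Krt1).

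The mutant follicle cells differed from controls mainly at the posterior, tailward end of the Hox series. Hoxc10 and Hoxd9, which were close to silent in controls, rose, and no Hox gene fell. Posterior members summed to 36.7 ± 2.27 CPM in controls and 72.0 ± 4.57 CPM in mutants, while anterior members summed to 108 ± 4.27 and 79.3 ± 12.3 CPM (SD, n = 3 each). Central members, which hold most of the Hox transcript in these cells, were at 253 ± 16.9 and 291 ± 70.7 CPM.

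Of the 38 members, 28 had enough reads to be tested, and 2 of these 28 (7.14%) were called higher, against 2.59% of the 14345 genes tested. A call is an adjusted p under 0.05 in edgeR's quasi-likelihood test, with Benjamini-Hochberg adjustment over those 14345 genes. None was called lower, against 0.404% of all genes, nor with DESeq2 or limma-voom, and at an unadjusted p under 0.05 there were 6 higher and 1 lower. With the replicate number of the labels as a block the same 2 genes were called higher and none lower, where the block called 6.09% of all genes higher and 3.29% lower. DESeq2 called Hoxd8 besides these 2, against 5.15% of all genes called higher. The 3 mutant libraries lay above all 3 controls for 9 of the 28 (32.1%, against 12.1% of all genes tested), and below them for 1 (3.57%, against 9.15%). The median log2 fold change of the 28 was 0.26, and over all genes tested it was -0.0033. The median of the 28 was 0.08 without mutant replicate 2 and 0.50 without mutant replicate 3. Among the 28, 3 (Hoxc10, Hoxd9 and Hoxd3) had too few reads in every control and passed the low-count filter only through the mutants. The filter asked for 3 libraries at a cutoff of 0.62 CPM on library totals. Hoxc9 and Hoxc12 reached it in 2 controls and Hoxd4 and Hoxd11 in 1, so they too needed mutant libraries to pass. Counts over tested members are tilted upward by the first 3 and can be tilted by these others. Of the 25 besides Hoxc10, Hoxd9 and Hoxd3, 0 were called in either direction. Among these 25, 4 had an edgeR unadjusted p under 0.05, 3 of them higher, and DESeq2 called 1, Hoxd8. The median log2 fold change of the 25 was 0.19, and 6 of them (24%) were higher without overlap. These 6 include Hoxc9, Hoxc12 and Hoxd4, which needed mutant libraries to pass.

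**Figure D1:**
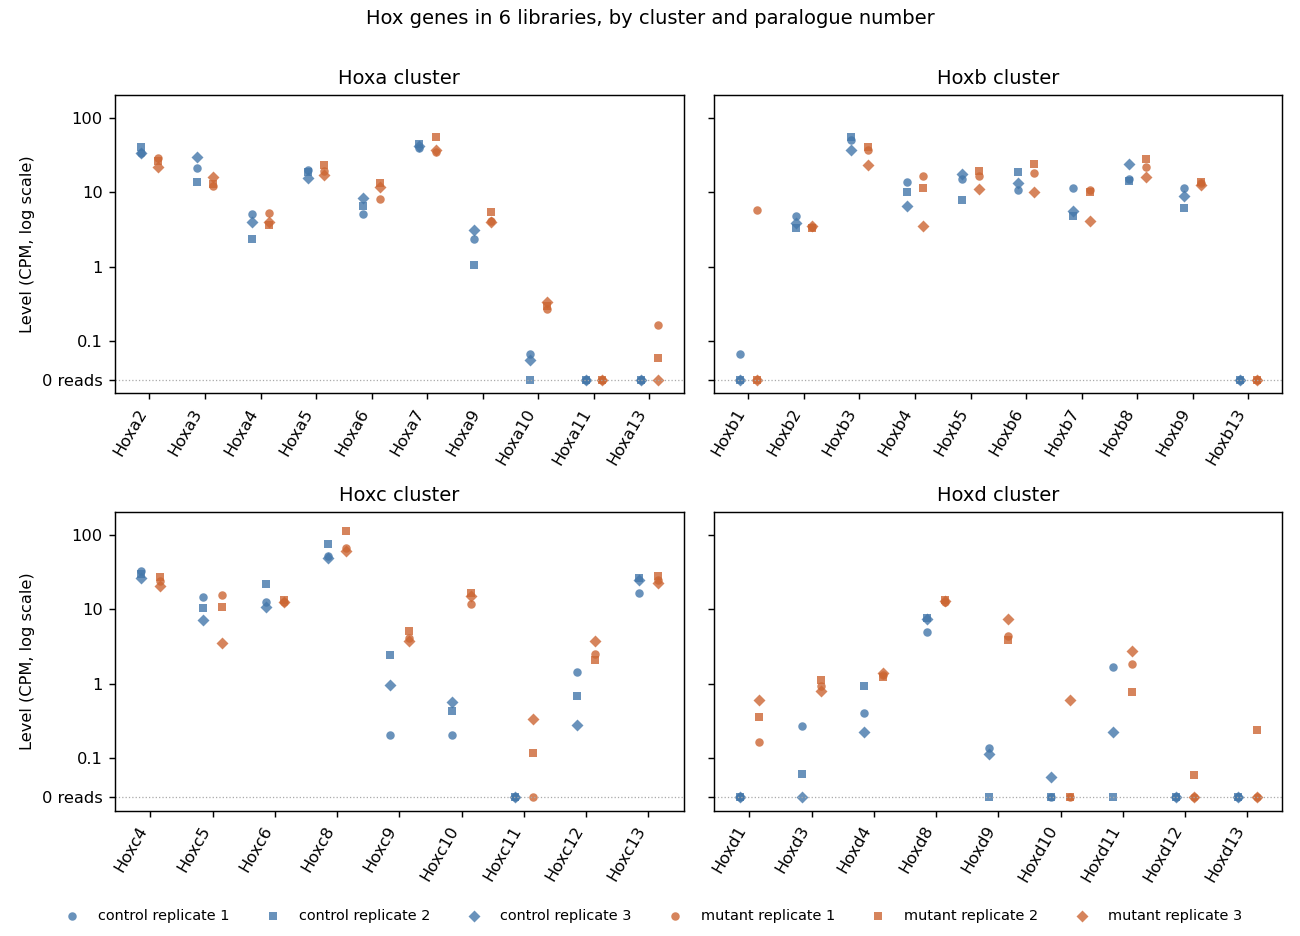
Level in CPM (log axis, with libraries without a read on the dotted line) of the 38 Hox genes in each library, in 4 panels by cluster and ordered by paralogue number, controls in blue and mutants in orange. Hoxc10 and Hoxd9 stand apart, with controls at 0.568 CPM or less and mutants at 3.88 CPM or more, and Hoxb1 had more than 1 read only in mutant replicate 1.

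In control follicle cells the most transcribed Hox genes had low and middle paralogue numbers. To compare genes, levels are given per kilobase of exon (RPKM). Hoxc8 was the highest at 31.2 ± 7.38 RPKM, followed by Hoxa7 at 20.7 ± 1.10, Hoxa2 at 19.9 ± 2.08, Hoxc4 at 14.95 ± 1.51, Hoxb3 at 13.4 ± 2.66 and Hoxb6 at 10.6 ± 2.98 RPKM (SD, n = 3). Hoxa7 and Hoxa2 were closer to each other than either SD, while Hoxc4 and Hoxb3 lay within the SD of Hoxb3. Hoxc8 helps to pattern the thoracic skeleton and spinal cord, and Hoxa2 patterns the hindbrain and branchial arches. The mutant order began alike, with Hoxc8 at 42.7 ± 15.3, Hoxa7 at 20.8 ± 5.44 and Hoxa2 at 14.35 ± 1.97 RPKM. All 15 central members had reads in every library, with control means from 0.205 RPKM (Hoxd4) upward.

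Levels dropped beyond paralogue 8 in 3 of the 4 clusters. Hoxa9 was at 0.679 ± 0.323, Hoxc9 at 0.508 ± 0.480 and Hoxd9 at 0.0390 ± 0.0342 RPKM in controls, against 3.44 ± 1.06 RPKM for Hoxb9. Hoxa11 and Hoxb13 had no read in any library, and Hoxa13, Hoxc11, Hoxd12 and Hoxd13 had none in controls. Hoxc13, needed for hair keratin genes and the hair shaft, was the exception at the tail end of a cluster, at 9.11 ± 2.04 RPKM in controls and 10.2 ± 1.06 RPKM in mutants. Posterior members made up 7.32 to 8.34% of the summed Hox RPKM in the controls and 12.5 to 17.9% in the mutants. The anterior share was 21.9 to 23.1% and 12.7 to 16.9%, and neither range overlapped its counterpart.

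Hoxc10 gave the firmest change. This gene (chromosome 15, 102966796 to 102971893, plus strand, GRCm38) belongs to the lumbar and hindlimb part of the Hox code. Its reads numbered 3, 7 and 10 in control libraries and 212, 275 and 223 in mutant ones. These are 0.204, 0.439 and 0.568 CPM against 11.6, 16.4 and 14.9 CPM, with the groups far apart. Its log2 fold change came to 5.10 (SE 0.44, edgeR adjusted p = 0.000488). Without any 1 library it ran from 4.80 to 5.43 and the gene was called in 6 of 6 fits, with an adjusted p of at most 0.00464. Of its exon length 8.70% is shared with a Hoxc5 transcript on the same strand. Among the 38 members ordered by RPKM it stood at rank 24 in controls and rank 13 in mutants. At 7.50 ± 1.28 RPKM in mutants it was near Hoxc6 (8.06 ± 0.401 RPKM) and far below Hoxc8 (42.7 ± 15.3 RPKM), the nearest central gene of the cluster.

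Hoxd9, a gene of the posterior trunk and proximal limb, was the other called member (chromosome 2, 74697727 to 74700208, plus strand). Its promoter is shown with those of the genes on either side, Hoxd10, which had almost no reads, and Hoxd8, which was transcribed in both groups, and with that of Hoxb1, whose reads came almost all from 1 mutant library. Each window runs from 250 bases before to 50 after the annotated start, 5′ to 3′, from RefSeq on GRCm38.p6, and capitals mark CpG dinucleotides, the dinucleotide whose density is known to go with Polycomb binding.
Hoxd10 (chr2:74691641-74691940, plus strand): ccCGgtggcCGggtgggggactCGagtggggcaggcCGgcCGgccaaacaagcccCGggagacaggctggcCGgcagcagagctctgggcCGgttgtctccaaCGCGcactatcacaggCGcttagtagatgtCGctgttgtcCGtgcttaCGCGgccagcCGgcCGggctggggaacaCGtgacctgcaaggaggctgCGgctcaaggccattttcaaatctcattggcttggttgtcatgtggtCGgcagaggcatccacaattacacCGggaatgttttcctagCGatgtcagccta
Hoxd9 (chr2:74697513-74697812, plus strand): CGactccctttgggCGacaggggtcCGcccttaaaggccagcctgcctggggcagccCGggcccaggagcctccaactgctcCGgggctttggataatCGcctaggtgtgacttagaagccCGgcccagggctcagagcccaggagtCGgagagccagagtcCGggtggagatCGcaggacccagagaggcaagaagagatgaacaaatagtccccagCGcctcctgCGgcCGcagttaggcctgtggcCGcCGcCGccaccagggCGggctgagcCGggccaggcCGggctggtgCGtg
Hoxd8 (chr2:74704365-74704664, plus strand): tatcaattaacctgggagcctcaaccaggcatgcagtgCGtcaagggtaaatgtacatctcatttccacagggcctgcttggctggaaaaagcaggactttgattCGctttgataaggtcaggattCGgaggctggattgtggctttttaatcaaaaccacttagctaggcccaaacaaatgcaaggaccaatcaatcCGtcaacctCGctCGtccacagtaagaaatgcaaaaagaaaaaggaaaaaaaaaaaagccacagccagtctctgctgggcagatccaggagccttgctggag
Hoxb1 (chr11:96365508-96365807, plus strand): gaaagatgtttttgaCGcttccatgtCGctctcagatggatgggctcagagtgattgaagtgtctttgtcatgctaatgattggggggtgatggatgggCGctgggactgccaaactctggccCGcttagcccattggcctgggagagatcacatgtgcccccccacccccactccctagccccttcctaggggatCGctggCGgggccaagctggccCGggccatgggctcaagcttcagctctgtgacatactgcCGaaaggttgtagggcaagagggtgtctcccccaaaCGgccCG
The windows held 22 CpG in Hoxd10, 20 in Hoxd9, 6 in Hoxd8 and 10 in Hoxb1. Over the 24 promoters given for 22 of the 38 members the median was 14.5 CpG (4 to 45). Over all 32851 promoters of the same length it was 7. No promoter was given for the remaining members, the called Hoxc10 among them, and Hoxc4 was the only Hoxc gene covered. The Hox-Pbx type motif TGATNNAT, on either strand, was in 4 of the 24 (16.7%) and in 8.85% of all promoters. The Meis type motif TGACAG, on either strand, was in 2 of the 24 (8.33%) and in 19.2% of all. A match of this kind is a description of letters, and neither motif was in the Hoxd9 window.

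Hoxd9 had 2, 0 and 2 reads in controls and 81, 65 and 111 in mutants. As levels these are 0.136, 0 and 0.114 CPM against 4.44, 3.88 and 7.42 CPM, so that the groups were far apart and mutant replicate 3 was the highest. The log2 fold change was 5.86 (SE 0.81, edgeR adjusted p = 0.00508). Without any 1 library it ran from 5.31 to 6.30 and the gene was called in 6 of 6 fits, with an adjusted p of at most 0.0228. Its rank by RPKM was 27 in controls and 22 in mutants. At 2.46 ± 0.892 RPKM in mutants it stayed below Hoxd8 (4.70 ± 0.147 RPKM).

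The rest of the Hoxd cluster, which serves limb, genital and trunk patterning, had no edgeR call, while DESeq2 called Hoxd8. Hoxd1, Hoxd10, Hoxd12 and Hoxd13 had too few reads to be tested. Of the 8 genes besides Hoxd9, 4 (Hoxd1, Hoxd3, Hoxd4 and Hoxd8) were higher in every mutant library and the other 4 overlapped. Of the 5 Hoxd genes tested, Hoxd9 among them, 4 (80%) were higher without overlap, against 12.1% of all genes tested. Of these 4, only Hoxd8 reached the filter's cutoff in all 3 controls, and the others needed mutant libraries to be tested. The 9 Hoxd genes summed to 7.43, 8.60 and 8.12 CPM in the controls and 21.2, 20.9 and 26.5 CPM in the mutants. Without Hoxd9 the sums were 7.29, 8.60 and 8.003 against 16.7, 17.1 and 19.1 CPM, still without overlap. All 5 tested members had a positive log2 fold change, but 2 of them (Hoxd9 and Hoxd3) had passed the filter only through the mutants, which fixes their sign. The other 3, Hoxd4, Hoxd8 and Hoxd11, had 1.32, 0.95 and 1.49, where 49.7% of all genes tested were positive. Hoxd4 and Hoxd11 reached the filter's cutoff in 1 control each and needed mutant libraries as well, which favours a positive sign. In each of the other clusters the summed levels of the groups overlapped, at 129 ± 5.54 and 121 ± 15.8 CPM for Hoxa, 123 ± 8.03 and 125 ± 36.9 for Hoxb, and 139 ± 24.4 and 173 ± 38.0 for Hoxc.

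Hoxd8, the most transcribed member of its cluster, was at 4.91, 7.59 and 7.49 CPM in the controls and 12.4, 13.2 and 12.97 CPM in the mutants. Its groups did not overlap, and its log2 fold change was 0.95 (SE 0.28, edgeR adjusted p = 0.127, 0.0527 with the replicate block and 0.0413 with DESeq2). Hoxd3, a gene of the neck vertebrae, had 4, 1 and 0 reads against 17, 19 and 12, or 0.273, 0.0628 and 0 CPM against 0.932, 1.13 and 0.802 CPM. Its log2 fold change was 3.07 (SE 1.05, edgeR adjusted p = 0.184). Hoxd4, next to it, was at 0.409, 0.941 and 0.227 CPM against 1.32, 1.25 and 1.404 CPM (1.32, SE 0.74, edgeR adjusted p = 0.472). Both sat higher in every mutant library, but their annotated exons overlap. How reads under overlapping genes were counted is not given, so their values may not be independent. Of the exon length 88.0% of Hoxd3 and 45.1% of Hoxd4 lies under other transcripts of the same strand, Hoxd4 and Gm28230 for Hoxd3, and Gm28230 for Hoxd4.

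Beyond Hoxd9 the cluster was patchy. Hoxd10 had 0, 0 and 1 reads in controls and 0, 0 and 9 in mutants, all 9 in mutant replicate 3. Hoxd11 had 25, 0 and 4 reads against 34, 13 and 41, which overlap (log2 fold change 1.49, SE 1.14, edgeR adjusted p = 0.627). Hoxd12 had 1 read in all and Hoxd13, the digit gene at the tail end, had 4, all in mutant replicate 2. At the other end Hoxd1 had no control read and 3, 6 and 9 mutant reads, at least 5.79-fold higher against a floor of 3 counts over the control group.

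**Figure D2:**
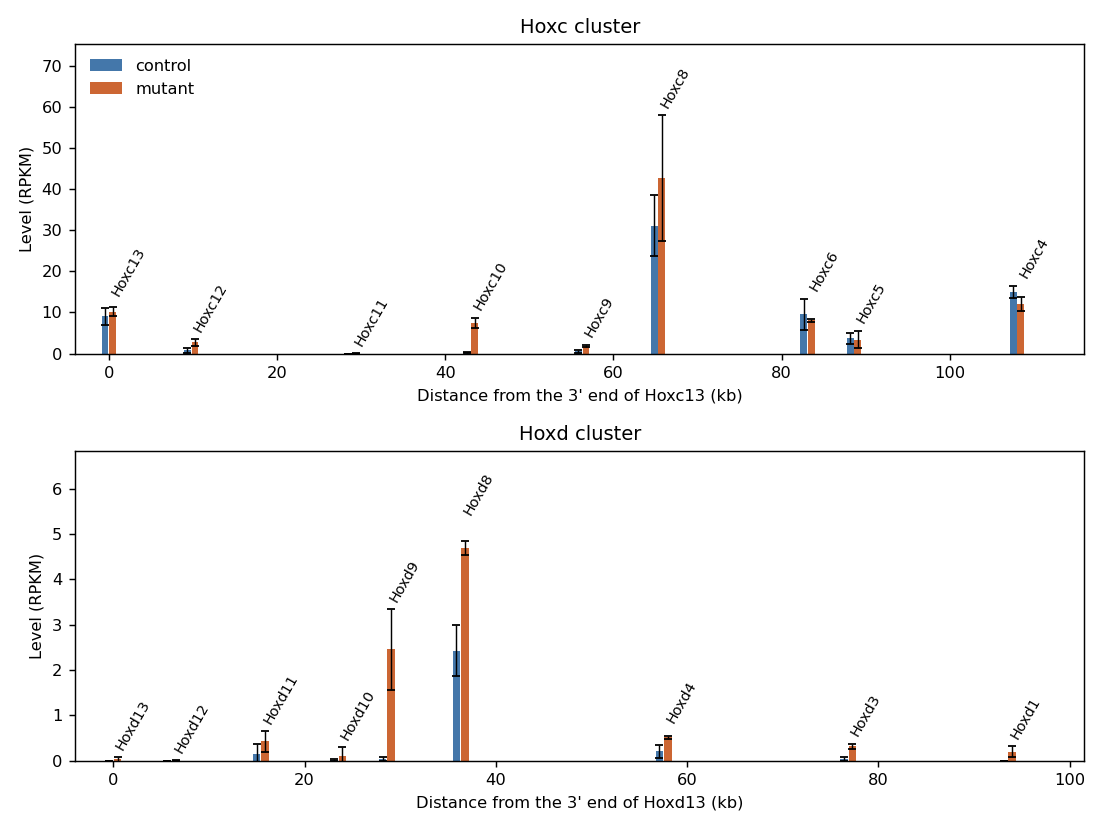
Mean level in RPKM of control (blue) and mutant (orange) libraries along the Hoxc and Hoxd clusters, with the distance in kb from the 3′ end of the highest numbered gene on the horizontal axis and error bars of 1 SD (n = 3). The mutant bars of Hoxc10 (7.50 RPKM) and Hoxd9 (2.46 RPKM) stand beside Hoxc11 and Hoxd10, which stayed near 0 in both groups.

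In the Hoxc cluster, active in trunk skin and hair, the genes around Hoxc10 differed less. Hoxc9 was at 0.204, 2.45 and 0.965 CPM in the controls and 4.17, 5.07 and 3.81 CPM in the mutants, without overlap but with controls far apart (log2 fold change 1.84, SE 0.73, edgeR adjusted p = 0.267). Hoxc12 was at 1.43, 0.690 and 0.284 CPM against 2.52, 2.09 and 3.74 CPM (1.80, SE 0.70, edgeR adjusted p = 0.261). Hoxc11, between Hoxc10 and Hoxc12, had no control read and 0, 2 and 5 mutant reads. Hoxc13 was at 16.7, 26.04 and 24.5 CPM against 24.6, 27.8 and 22.6 CPM, and its groups overlapped.

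The headward Hoxc genes showed no call. Hoxc8 was at 51.2, 74.1 and 49.3 CPM in the controls and 66.7, 112 and 60.0 CPM in the mutants (log2 fold change 0.45, SE 0.27, edgeR adjusted p = 0.493), with mutant replicate 2 the highest. Hoxc4 was at 32.4, 30.1 and 26.4 CPM against 23.9, 27.3 and 20.6 CPM (-0.31, SE 0.20, edgeR adjusted p = 0.546). Hoxc5 and Hoxc6, the remaining 2 members of the cluster, had log2 fold changes of -0.10 and -0.24 and overlapping groups.

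Taken by paralogue number, the 4 genes numbered 9 differed in the same direction. Hoxa9, a gene also known from blood stem cells, was at 2.38, 1.07 and 3.12 CPM in the controls and 4.11, 5.43 and 4.01 CPM in the mutants (log2 fold change 1.04, SE 0.50, edgeR adjusted p = 0.384). Hoxb9, which acts in the thoracic skeleton and mammary gland, was at 11.5, 6.09 and 8.97 CPM against 13.2, 13.8 and 12.4 CPM (0.57, SE 0.29, edgeR adjusted p = 0.422). With Hoxc9 and Hoxd9, all 4 lay higher in every mutant library than in any control, which 12.1% of all genes tested did. Hoxd9 alone was called, and it passed the filter only through the mutants. Hoxc9 reached the filter's cutoff in 2 controls and so also needed mutant reads to pass. Of the paralogues numbered 10, Hoxc10 was called, while Hoxa10 had 1, 0 and 1 reads against 5, 5 and 5. Its ratio of CPM was 7.24 (exact 95% interval from counts 1.68 to 65.2, which covers counting error of amplified reads and not the spread between samples).

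The anterior genes of Hoxa and Hoxb lay on the other side of 0. Hoxa2 was at 33.5, 39.7 and 33.0 CPM in the controls and 28.6, 26.2 and 21.7 CPM in the mutants, the 1 member lower in every mutant library (log2 fold change -0.47, SE 0.20, edgeR unadjusted p = 0.0374, adjusted p = 0.294). Hoxb3, active in hindbrain and pharynx, was at 49.4, 55.5 and 37.1 CPM against 37.2, 40.8 and 22.7 CPM, which overlap (-0.49, SE 0.26, edgeR adjusted p = 0.425). Hoxa3, which helps to form thymus and parathyroid, had the lowest value of all, -0.67 (SE 0.30, edgeR adjusted p = 0.339), with controls at 21.3, 13.62 and 29.9 CPM and mutants at 12.2, 12.8 and 15.9 CPM, which overlap. Hoxb2 had -0.22 and overlapping groups. Antisense transcripts cover 63.9% of the exon length of Hoxb3 and 58.5% of that of Hoxb2, and without a stated strand setting reads of the 2 strands cannot be told apart.

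Hoxb1, a hindbrain gene, had 1, 0 and 0 reads in controls and 104, 0 and 0 in mutants. The 104 reads, 5.70 CPM, were in mutant replicate 1 alone, so the group difference rests on that library and the gene did not pass the filter. Hoxb2, its neighbour in the cluster, had 62, 56 and 52 reads in the mutants, with no such peak in that library.

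Central genes outside Hoxd showed small differences of either sign. Of the 15 central members tested, 12 had a positive log2 fold change and none was called. The 13 outside Hoxd lay between -0.31 and 0.73. Hoxa7, the most transcribed Hoxa gene, was at 39.2, 43.7 and 41.5 CPM in the controls and 34.0, 54.3 and 37.2 CPM in the mutants (log2 fold change 0.01, SE 0.21, edgeR adjusted p = 0.988). Hoxb6, the leading Hoxb gene per kilobase beside Hoxb3, was at 10.6, 18.3 and 13.1 CPM against 17.9, 24.1 and 9.96 CPM (0.31, SE 0.35, edgeR adjusted p = 0.768). In both, mutant replicate 2 was the highest library, and the groups overlapped. Hoxa6 had the largest central value outside Hoxd, 0.73 (SE 0.33, edgeR adjusted p = 0.339).

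The remaining central genes of the Hoxa, Hoxb and Hoxc clusters varied more between libraries of 1 group than between the groups. Hoxb4 was at 13.8, 10.04 and 6.41 CPM in controls and 16.3, 11.4 and 3.48 CPM in mutants. Hoxb7 was at 11.4, 4.71 and 5.51 CPM against 10.6, 10.02 and 4.08 CPM. Hoxc5 was at 14.9, 10.4 and 7.15 CPM against 15.7, 10.7 and 3.54 CPM. In these 3 genes mutant replicate 3 was the lowest of the 6 libraries. Hoxb5 (7.91 to 17.7 and 11.2 to 19.3 CPM), Hoxb8 (13.9 to 24.01 and 15.8 to 28.03 CPM), Hoxa4 (2.32 to 5.04 and 3.58 to 5.21 CPM) and Hoxa5 (15.6 to 19.9 and 17.1 to 23.3 CPM) overlapped too, with control ranges given first. Their log2 fold changes lay between 0.15 (Hoxa5) and 0.31 (Hoxb8).

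**Figure D3:**
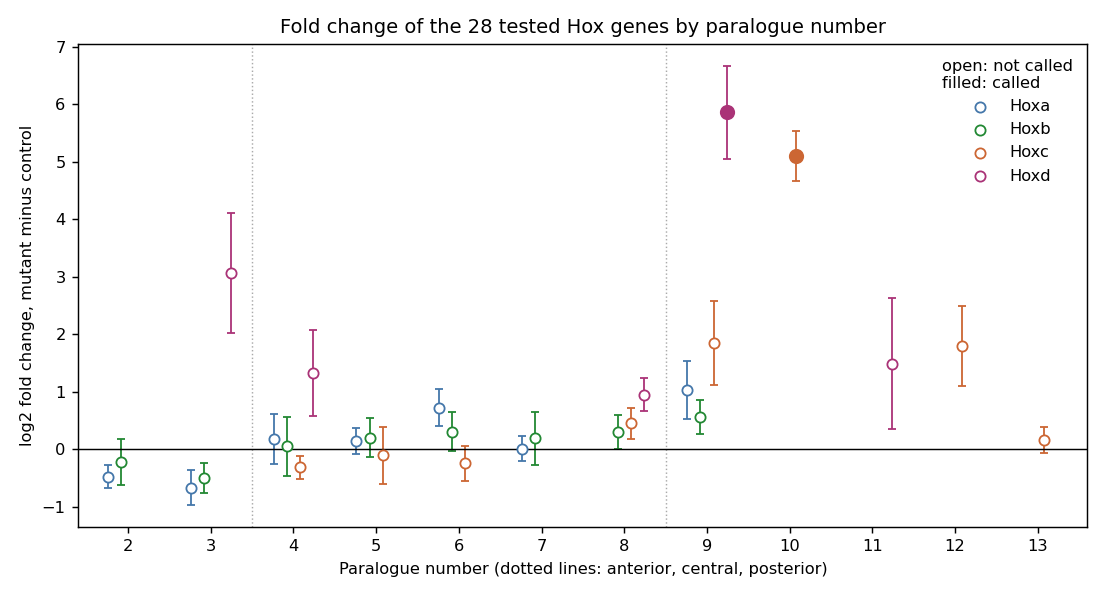
Log2 fold change (mutant minus control, error bars 1 SE) of the 28 tested Hox genes by paralogue number, coloured by cluster, with filled points for called genes and dotted lines between anterior, central and posterior groups. Of the 8 posterior genes tested all lie above 0, and of the 5 anterior genes only Hoxd3 does.

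By position, 4 of 5 tested anterior members had a negative log2 fold change (median -0.47), 12 of 15 central members a positive one (median 0.19) and 8 of 8 posterior members a positive one (median 1.64), where 49.7% of all genes tested were positive. Without the 3 members that passed the filter only through the mutants, 4 of 4 anterior members were negative and 6 of 6 posterior members positive. Of these 6, Hoxc9 and Hoxc12 reached the filter's cutoff in 2 controls and Hoxd11 in 1, where 3 libraries were needed. They too needed mutant libraries to be tested, so the 6 are not free of the filter. Leaving out control replicate 1 turned Hoxc13 negative, and 7 of 8 posterior members were then positive. Over the 28 members the log2 fold change followed the paralogue number with a Spearman rho of 0.62, and the control level in RPKM with a rho of -0.74. The control reads also enter the fold change, so noise in them can by itself push the rho with control level below 0. The 3 members that passed the filter only through the mutants were by that choice low in controls. Without them the values over 25 members were 0.71 and -0.64. The 25 still include Hoxc9, Hoxc12, Hoxd4 and Hoxd11, which also needed mutant libraries, so both values can still be shaped by the filter. All of these values are descriptions over genes that share 6 libraries, and with so few genes position and control level cannot be told apart.

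In summed level the posterior group was at 34.3, 36.8 and 38.9 CPM in the controls and 67.0, 76.0 and 72.9 CPM in the mutants. Without Hoxc10 and Hoxd9 its 14 other genes summed to 34.0, 36.3 and 38.2 against 50.9, 55.7 and 50.6 CPM. The groups did not overlap in either case. The anterior group was at 109, 112 and 104 CPM against 88.1, 84.6 and 65.2 CPM, also without overlap. The first of these mutant sums includes the 5.70 CPM of Hoxb1. The central group overlapped. In bulk cells a change in the number of cells of a type and a change of RNA per cell cannot be told apart.

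**Figure D4:**
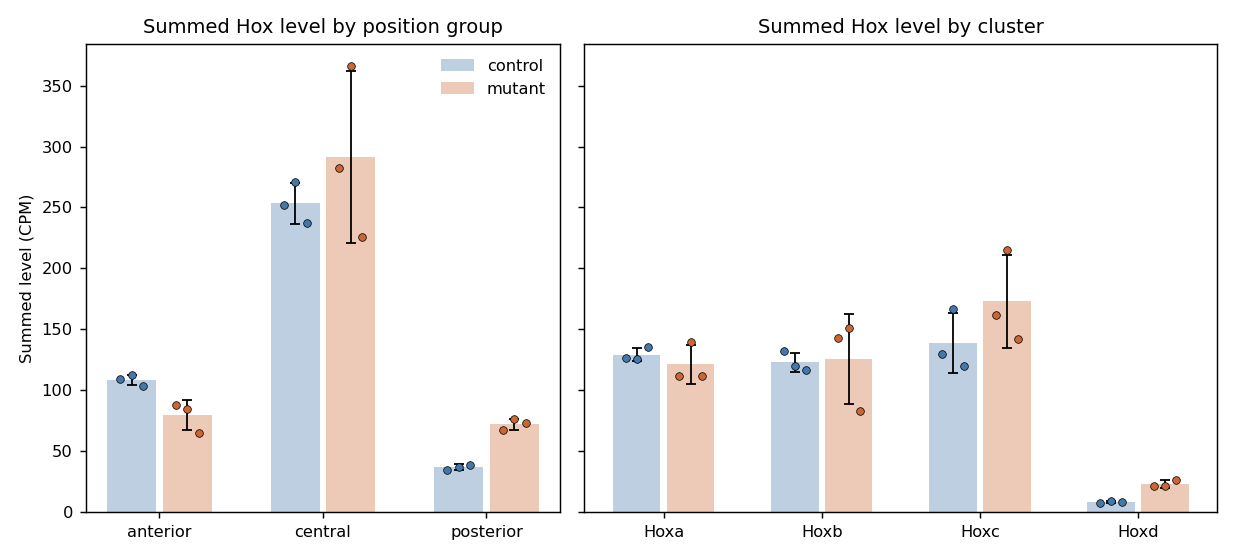
Summed level in CPM of the Hox genes by position group (left) and by cluster (right), with points for libraries, bars for group means and error bars of 1 SD (n = 3), controls in blue and mutants in orange. The posterior group (36.7 and 72.0 CPM) and the Hoxd cluster (8.05 and 22.9 CPM) are higher in all mutant libraries, and the anterior group (108 and 79.3 CPM) is lower in all of them.

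Markers of other cells were measured beside these values. The 10 dermal fibroblast markers summed to 616 to 1065 CPM in controls and 733 to 1028 CPM in mutants, so the groups overlapped, and 1 of 8 tested (Fbn1) was called higher, a call kept in 3 of 6 fits that leave out 1 library (edgeR adjusted p up to 0.0756 without control replicate 1). The 8 dermal papilla markers summed to 20.2 to 34.3 CPM in controls and 44.8 to 68.1 CPM in mutants, and 1 of 6 tested (Prom1) was called higher, against 2.59% of all genes. Without Prom1 the papilla sums were 15.9 to 28.7 and 22.5 to 43.0 CPM, which overlap. The median log2 fold change of the 6 tested was 0.52. Crabp1 had control and mutant means of 0.749 and 2.62 CPM and was higher in every mutant library (edgeR adjusted p = 0.243). Inhba was at 16.4 and 23.95 CPM and Sox18 at 1.08 and 1.54 CPM, both overlapping, and Corin, Alx4, Rspo3 and Fgf7 overlapped at no more than 2.50 CPM. No marker of the 8 was at 0 in a whole group, and the part of dermal papilla cells in the Hox values was not tested. No endothelial, immune, melanocyte, Schwann, muscle or Merkel cell marker was called.

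Hox proteins bind DNA with cofactors of the TALE homeodomain class, the Pbx, Meis and Pknox (Prep) proteins. Of 8 such genes tested, 3 rose and none fell, against 2.59% and 0.404% of all genes, with a median log2 fold change of 1.59. Meis2 was at 40.3, 34.8 and 49.2 CPM in the controls and 147, 179 and 126 CPM in the mutants (log2 fold change 1.86, SE 0.20, edgeR adjusted p = 0.00116). Meis1 was at 19.1, 13.9 and 15.3 CPM against 42.5, 40.8 and 37.2 CPM (1.32, SE 0.20, edgeR adjusted p = 0.00841). Both were called in 6 of 6 fits without 1 library.

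Pknox2 was at 0.341, 0.126 and 1.02 CPM in the controls and 4.55, 5.13 and 7.35 CPM in the mutants (3.47, SE 0.70, edgeR adjusted p = 0.0286), but a single fit of the 6 that leave out 1 library called it (adjusted p up to 0.116 without control replicate 1). Meis3 was at 7.97, 3.01 and 11.1 against 21.4, 23.0 and 36.0 CPM, and missed the threshold (edgeR adjusted p = 0.0510), but was called with the block (0.00419), with DESeq2 (0.000738), with limma-voom (0.0374) and without the low-count filter (0.00694). Pbx2, Pbx3, Pbx4 and Pknox1 were called neither with nor without the block, with Pbx4 above and Pbx3 and Pknox1 below the controls in every mutant library.

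**Figure D5:**
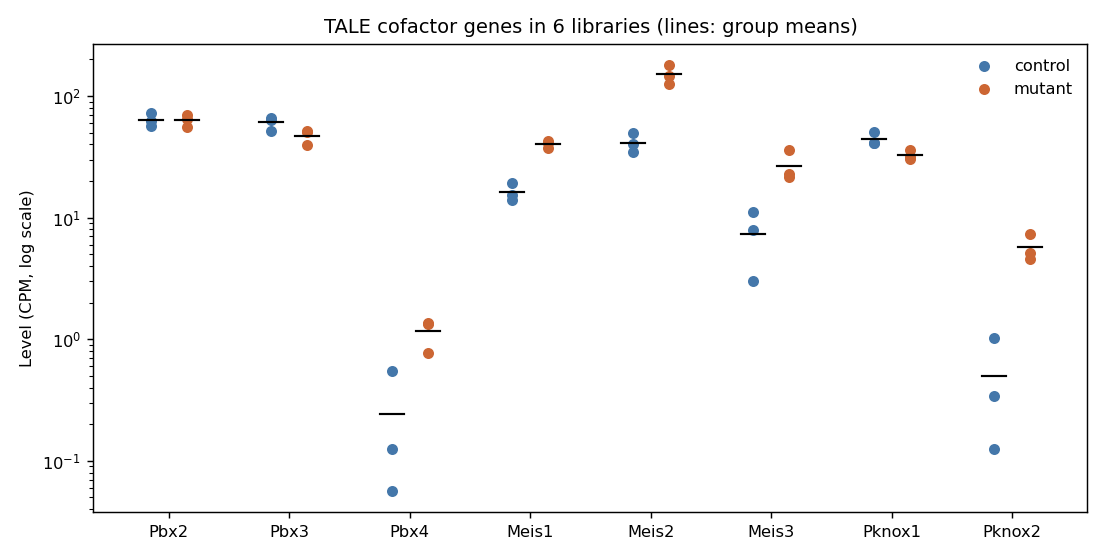
Level in CPM (log axis) of 8 TALE cofactor genes in each library, controls in blue and mutants in orange, with lines for group means. The called Meis1, Meis2 and Pknox2 lie higher in all 3 mutant libraries than in any control, as do Meis3 and Pbx4, which were not called.

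Other genes tied to the Hox clusters gave few calls. Of 13 tested upstream regulators of Hox genes (18 symbols listed), none rose and 1 fell, where 0.404% of all genes fell. That gene was Egr2 (Krox20), which activates Hoxa2 and Hoxb2 in the hindbrain, at 235, 360 and 259 CPM in the controls and 101, 150 and 168 CPM in the mutants. Its log2 fold change was -1.03 (SE 0.23, edgeR adjusted p = 0.0432), and leaving out 1 library kept the call in 2 of 6 fits (adjusted p up to 0.138 without mutant replicate 1). Kdm6a, a demethylase of the Polycomb mark on histone H3, was at 360 ± 27.4 and 228 ± 39.0 CPM and missed the threshold (edgeR adjusted p = 0.0642), but was called lower with the block (0.00465), with DESeq2 (0.00948) and without the low-count filter (0.0425). The trunk regulators Cdx1, Cdx2 and Cdx4 had at most 2 reads in any library. None of 6 tested Hox-binding partners was called, Crebbp (1092 ± 216 and 885 ± 185 CPM) and Ep300 (723 ± 138 and 586 ± 151 CPM) among them, and their median log2 fold change was -0.30. None of 20 tested genes that flank the clusters was called (27 listed), nor was any with the block, and their median log2 fold change was -0.04. None of 4 tested noncoding RNAs inside the clusters was called (26 listed), with Hotairm1 at 13.7 ± 4.18 and 10.1 ± 3.002 CPM and Halr1 at 6.19 ± 1.397 and 4.57 ± 0.705 CPM. Hotair, transcribed from the Hoxc cluster, had no control read and 2, 3 and 4 mutant reads, and Evx1 and Evx2, beside Hoxa and Hoxd, had 1 read between them.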

How the data were processed

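RNA was sequenced in 6 libraries of sorted cells. For each library the authors deposited raw counts, whole numbers of reads by gene symbol. The submitters' processing notes list HTSeq 0.6.1, TopHat2 2.0.13, DESeq2 1.6.3 and Cufflinks 2.2.1 with mm10. The sources used here give neither the task of each tool nor the use of strand nor the annotation counted. Per the labels' protocols, 10 ng of RNA was amplified before library construction.

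Counts were tested with edgeR 4.0.16 in R 4.3.3: the two-sided quasi-likelihood test with group alone in the model, TMM factors, genes kept by filterByExpr, and Benjamini-Hochberg adjustment over 14345 genes. The SE came from the F statistic. CPM used TMM effective library sizes. RPKM, coordinates and overlaps used GENCODE M21 (GRCm38), with exon lengths of RefSeq-matched transcripts. No 2 libraries agreed within sampling noise. The steps were checked on simulated data. The members, lists and alternatives were chosen with earlier results of these data known. Fully described members are those called, called in an alternative fit on all 6 libraries, at an unadjusted p under 0.05, without overlap at 1 CPM or more, or the 2 highest per kilobase in a cluster. Others are named by their position or, like Hoxa3 and Hoxa6, for an extreme value, and the named genes outside Hox are those called or most abundant in their list, with further ones chosen after their values were seen. One further Hox gene and 1 further gene of a list are not reported here.

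Both groups carry replicate numbers 1 to 3, whose meaning is not labelled. Libraries with the same number deviated together (correlations of 0.168 to 0.363, against 0.0891 or less for other pairs), so the pairing comes from the data. The alternatives were other scalings, filters, DESeq2 1.42.0, limma-voom (limma 3.58.1), the replicate block and leaving out each library.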

Additional observations from a re-analysis of the deposited data

How the results depend on the processing

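Hoxc10 and Hoxd9 were called higher, and no Hox gene lower, in all 14 alternative fits, and DESeq2 added Hoxd8. Over all genes, 372 were called higher and 58 lower. DESeq2 called 739 higher and 247 lower, the replicate block 873 and 472, and the fit without a low-count filter 109 lower. Leaving out 1 library gave 143 to 554 higher and 19 to 110 lower calls. The block left upward calls at 64.9% of all calls and DESeq2 at 74.9%, against 86.5%. The block changed no call of a Hox gene. Hoxa7, near 0 in every fit on all 6 libraries, turned negative with median-ratio factors (-0.00039), DESeq2 (-0.00042), limma-voom (-0.019) and the replicate block (-0.0158). Without 1 library its value ran from -0.22 to 0.14. Hoxb6 ran from -0.0046 to 0.58, the lowest value without mutant replicate 2. For all of these the cause was not tested. Summed levels of the clusters and position groups kept within 1 SD of their reported ratios under every scaling and without any 1 library. Depth limits the 10 untested members, which had at most 18 reads in all, except Hoxb1, whose 104 mutant reads were in 1 library.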
